A study of Mus musculus with 24 samples.

Results

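The 10 genes described here govern how heart muscle builds and runs its mitochondria and burns fat, and they were followed through experimental autoimmune myocarditis (EAM) in the mouse. The group was set by gene symbol: Ppargc1a, Ppargc1b, Perm1, Ppara, Ppard, Esrra, Esrrb, Esrrg, Nrf1 and Tfam. All 10 were found among the 41388 genes of the count table, and all 10 passed the filter on low counts in every comparison. Part of each heart was sequenced, and the mice were Balb/c wild type males 8 to 10 weeks old at immunization. EAM mice were injected with a cardiac myosin heavy chain peptide in adjuvant (SCFA in the labels) on days 0 and 7, with PTX (pertussis toxin) on day 0. Control mice received SCFA with PBS on the same days and the same PTX, so the hearts of both groups had met adjuvant and toxin and differed by the peptide. There were 4 EAM and 4 control hearts at each of day 10 (D10), day 15 (D15) and day 21 (D21), 24 in all. By the study's methods, EAM hearts were picked for sequencing as far as possible for the presence of inflammation, which limits them as a sample of all immunized mice.

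The genes fall into layers. PGC-1α (Ppargc1a) and PGC-1β (Ppargc1b) are coactivators, which bind no DNA themselves and act through the receptors on which they dock. Perm1 is a muscle protein, induced by PGC-1 and the estrogen-related receptors (ERRs), that raises the expression of oxidative genes. PPARα (Ppara) and PPARδ (Ppard) are receptors for fatty acids and turn on fatty acid uptake and β-oxidation. ERRα, ERRβ and ERRγ (Esrra, Esrrb, Esrrg) are orphan nuclear receptors that turn on genes of the tricarboxylic acid cycle and the respiratory chain. NRF1 (Nrf1) activates nuclear genes for respiratory chain subunits and for TFAM (Tfam), the protein that packages mitochondrial DNA and helps to start its transcription. The adult heart draws most of its energy from fatty acids, and these factors are known for setting that capacity.

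Promoter windows from RefSeq (build GRCm38.p6), each running from 250 bases before to 50 bases after a RefSeq transcript start, were matched to 9 of the 10 genes in 14 windows. They were searched on both strands for the ERR half-site AAGGTCA, the NRF1 palindrome (GCGCA and GCGC parted by 1 base of any kind), the PPAR direct repeat (AGGTCA and AGGTCA parted by 1 base, which contains the ERR half-site where that base is A) and the cyclic AMP response element TGACGTCA. The 250 bases upstream of a RefSeq start of 3 genes are shown, 5′ to 3′ on the coding strand, with motifs in capitals. The RefSeq start lay 59 bases for Perm1, 793 bases for Ppara and 1 base for Ppargc1a downstream of the outermost start in GENCODE M21, which sets the gene coordinates given further on, so that the Ppara window is upstream of an inner start and within the gene as annotated there. Perm1 and Ppara were the 2 genes of the group that fell most at D15, and Ppargc1a encodes the coactivator of both receptor families.
Perm1 (chr4:156215677-156215926, plus strand): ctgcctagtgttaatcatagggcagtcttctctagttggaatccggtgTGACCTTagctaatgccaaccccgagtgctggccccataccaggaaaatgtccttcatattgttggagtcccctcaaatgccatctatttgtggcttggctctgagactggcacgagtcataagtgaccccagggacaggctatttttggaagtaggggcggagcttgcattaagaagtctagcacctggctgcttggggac
Ppara (chr15:85735526-85735775, plus strand): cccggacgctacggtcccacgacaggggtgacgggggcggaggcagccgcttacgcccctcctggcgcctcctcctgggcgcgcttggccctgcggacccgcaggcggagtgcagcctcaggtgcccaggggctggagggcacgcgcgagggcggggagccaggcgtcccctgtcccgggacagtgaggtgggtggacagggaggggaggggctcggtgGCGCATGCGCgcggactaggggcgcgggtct
Ppargc1a (chr5:51567726-51567975, minus strand): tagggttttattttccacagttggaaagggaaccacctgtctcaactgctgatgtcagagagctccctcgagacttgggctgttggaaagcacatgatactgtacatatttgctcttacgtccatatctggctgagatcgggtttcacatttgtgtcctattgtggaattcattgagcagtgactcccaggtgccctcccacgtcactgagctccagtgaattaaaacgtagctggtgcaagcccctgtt
The Perm1 window held the ERR half-site on the opposite strand, with its first printed base 202 bases before the RefSeq start. The Ppara window held the NRF1 palindrome, starting 31 bases before the RefSeq start. None of the 4 motifs was read in the Ppargc1a window. Of the 14 windows, 1 held the ERR half-site and 1 the NRF1 palindrome, while among all 32851 mouse windows 4.72% held the first and 4.60% the second. The cyclic AMP response element was in 1.79% and the PPAR repeat in 0.0396% of all windows. A match describes letters in a window and is not a measured binding site.

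Depth was 15814863 to 24980864 counts per library, and each of the 10 genes had 256 to 10403 reads in each heart, so none was near the limit of detection. Levels are given in CPM, a gene's reads relative to those of its library, after scaling by the trimmed mean of M values (TMM), which takes most genes as unaltered. The hearts were heart muscle by their markers: 16 cardiomyocyte genes summed to 43217 to 51359 CPM in control hearts, and none was at 0 in any heart. In EAM hearts that sum was 27744 to 45109 CPM at D10, 13561 to 27213 CPM at D15 and 24221 to 49218 CPM at D21. The 15 leucocyte genes moved the other way, from 443 to 1275 CPM over the control hearts to 921 to 3855 CPM in EAM hearts at D10, 4129.9 to 5823 CPM at D15 and 1464 to 4875 CPM at D21. Fibroblast genes summed to 8326 to 17345 CPM in D15 EAM hearts against 2026 to 2601 CPM in D15 control hearts, while endothelial genes summed to 782 to 858 against 1161 to 1514 CPM and smooth muscle and pericyte genes to 616 to 1047 against 2042 to 2456 CPM. The fibroblast genes moved unevenly, with Col1a1 at 1687 to 5246 against 145 to 216 CPM. Dcn overlapped, at 857 to 1111.5 against 863 to 1008 CPM, and Tcf21 was at 8.48 to 13.32 against 13.25 to 22.3 CPM. Of the 8 fibroblast genes, 1 had a D15 log2 fold change below 0. The part of these shifts in marker sums in the values below was not tested, except where counts are scaled to the cardiomyocyte genes. In such bulk tissue fewer cells of a type and less RNA per cell cannot be told apart. The 4 D21 EAM libraries carried a different library code from the other 20, so that code and EAM at D21 cannot be told apart.

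In control hearts the regulators spanned a wide range of levels, and none passed the test between days. Per kilobase of exon (exon lengths from GENCODE M21), Perm1 was the highest at 130.2 ± 14.5 CPM per kb (SD, n = 12), in the top few percent of genes at percentile 97.8 of 16224. Esrra followed at 44.3 ± 2.76 CPM per kb. Ppargc1a at 19.2 ± 1.63, Ppara at 18.4 ± 2.70, Tfam at 15.3 ± 0.521 and Esrrg at 14.0 ± 0.624 CPM per kb came next, and each overlapped its neighbour in this order. Ppargc1b at 8.26 ± 1.25, Ppard at 7.83 ± 0.259 and Esrrb at 7.79 ± 0.961 CPM per kb also overlapped one another. Nrf1 was the lowest at 1.77 ± 0.114 CPM per kb, at percentile 32.9. The order within families was therefore Esrra above Esrrg above Esrrb, Ppara above Ppard, and Ppargc1a above Ppargc1b, with no overlap between the 12 hearts of the members of each pair named in turn.

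**Figure D1:**
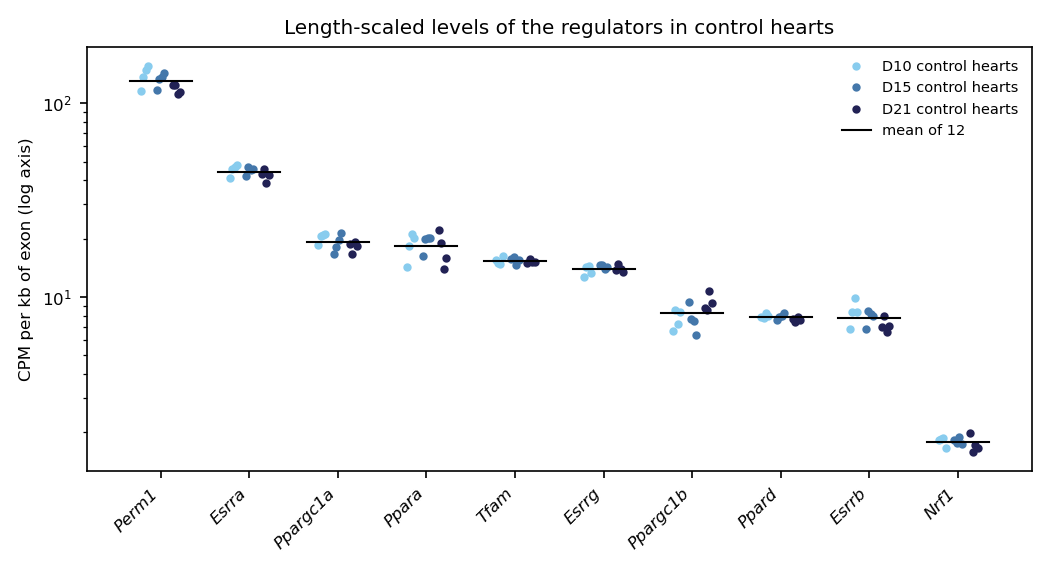
Level of each regulator in the 12 control hearts, in CPM per kilobase of exon on a log axis; each point is a heart, coloured by day, and the line is the mean of 12. Perm1 at 130.2 CPM per kb and Nrf1 at 1.77 CPM per kb are the extremes, and the days overlap for every gene except that the D21 hearts lie just above the D10 hearts for Ppargc1b.

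The spread between control hearts differed among the genes. Tfam and Ppard were the steadiest, with coefficients of variation of 3.40% and 3.31%, and Ppargc1b and Ppara the most variable, at 15.2% and 14.7%. None of the 10 came under an adjusted p of 0.01, by edgeR's quasi-likelihood test and the Benjamini-Hochberg method, between control hearts of D15 and D10, of D21 and D10, or of D21 and D15. DESeq2 and limma-voom also gave 0 in each, and 0, 2 and 1 of the 10 had an unadjusted p under 0.05, against 16.8%, 28.1% and 9.74% of all genes. Over all genes 0.0914%, 2.59% and 0% passed the adjusted limit. The nearest was Perm1 at D21 against D10, with a log2 fold change of -0.23 ± 0.09 (SE) and an adjusted p of 0.105 by edgeR. Ppargc1b differed the other way over the same days, by 0.29 ± 0.11 (adjusted p = 0.118).

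At D10 no regulator was called, although 9 of the 10 had fitted values below 0. A gene is called here when its adjusted p is under 0.01 and its level differs at least 2-fold, the limits that the study's methods set. By edgeR's quasi-likelihood test no gene of the 15029 tested was called at D10 (0%), and its smallest adjusted p among the regulators was 0.328. Over all genes DESeq2 called 48 higher and 4 lower, edgeR's likelihood ratio test 45 and 2, and limma-voom none. Ppargc1b and Tfam, 2 of the 10, had an unadjusted p under 0.05, against 15.3% of all genes, and DESeq2 and limma-voom also called none of the 10. With all 12 control hearts as controls the same 2 genes passed the adjusted limit as lower, against 4.19% of genes. The median log2 fold change of the 10 was -0.33, against -0.01 for all genes tested.

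The D10 shift was largest in 1 heart. Perm1 was at 235, 525, 422 and 491 CPM in EAM hearts 1 to 4 against 454, 533, 579 and 606 CPM in the control hearts. EAM replicate 1 was the low one, and it was the lowest EAM heart for 8 of the 10 genes, with a median of -0.89 (log2, relative to D10 control hearts). The medians of EAM replicates 2 to 4 were -0.04, -0.36 and -0.05. Replicate 1 of EAM also had the highest leucocyte sum of the D10 hearts, 3855 CPM, and the lowest cardiomyocyte sum, 27744 CPM. Ppara was at 30.8, 52.1, 33.7 and 75.2 CPM in EAM hearts against 54.9, 70.004, 80.6 and 77.3 CPM, so that replicate 3 was low as well and the groups overlapped. Tfam (49.96, 65.3, 62.1 and 59.7 CPM against 68.9, 66.7, 65.4 and 72.0 CPM) was lower in all 4 EAM hearts, by a margin that was narrow in replicate 2. Nrf1 (22.0, 20.1, 20.5 and 20.1 CPM against 18.6, 18.9, 19.2 and 16.9 CPM) was higher in all 4. Such separation was seen for 3.75% of genes downwards and 4.41% upwards. Neither gene passed the test, with adjusted p of 0.328 for Tfam and 0.357 for Nrf1 by edgeR.

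At D15 most of the group was lower in EAM hearts. Of the 10 regulators 7 were called lower in EAM hearts, against 12.9% of the 15693 genes tested, and none was called higher, against 18.1%. At an adjusted p under 0.01 alone, 8 were lower, against 31.1% of all genes, and Nrf1 was higher, against 33.2%. All 4 EAM hearts lay below all 4 control hearts for the 8 genes that fell, against 35.9% of all genes, and above them for Nrf1, against 34.6%. The median log2 fold change was -1.24 over the 10, and 0.02 over all genes. In all 4 D15 EAM hearts the cardiomyocyte sum was below, and the leucocyte sum above, the range of the control hearts, as given above.

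**Figure D2:**
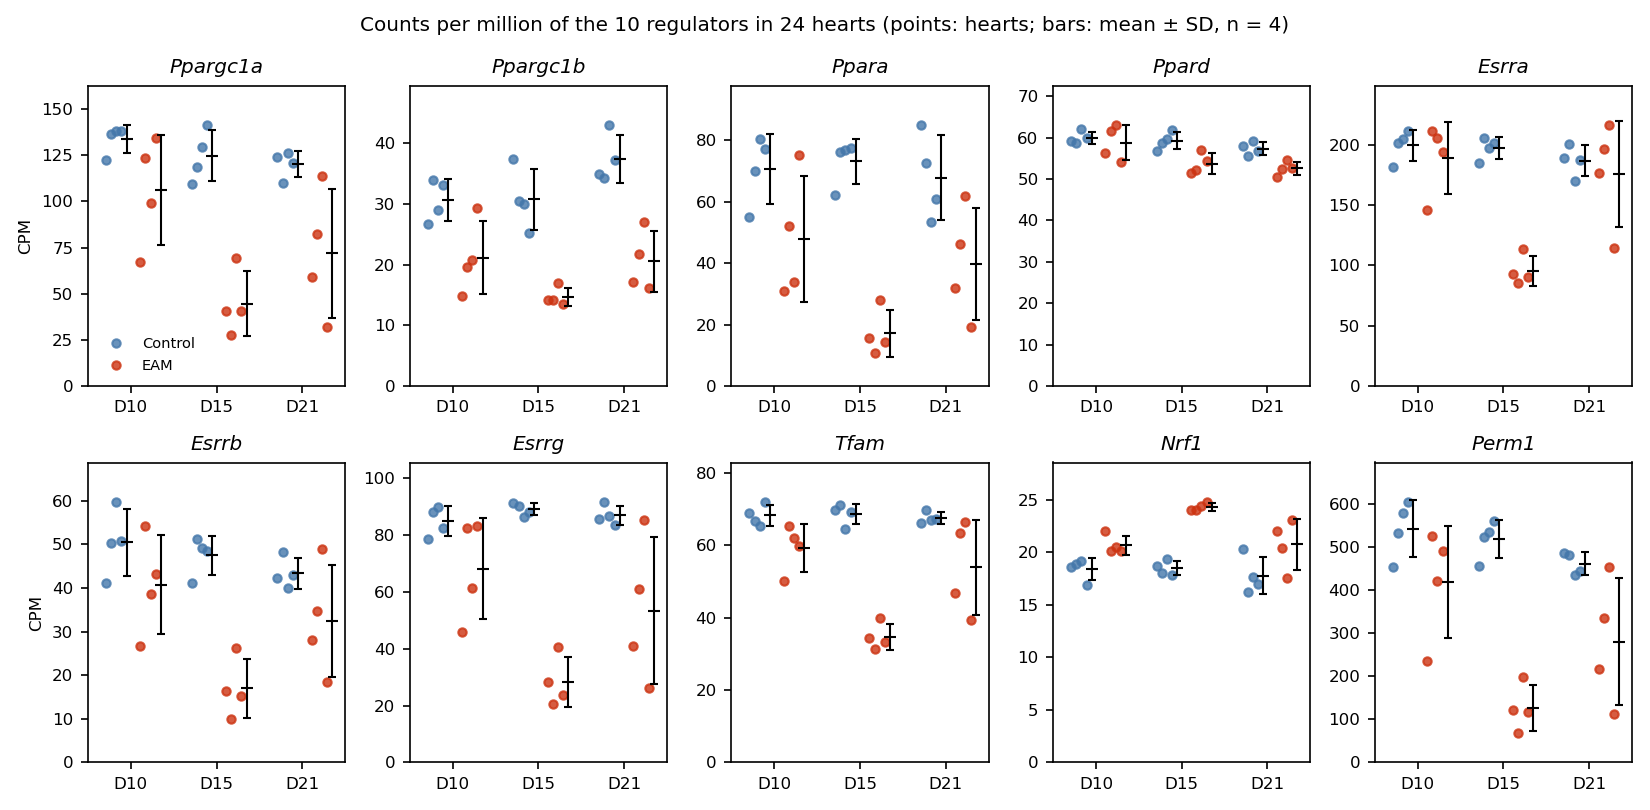
CPM of each regulator in the 24 hearts; points are hearts in replicate order, blue for control and red for EAM, and bars are the mean ± SD of 4. At D15 the EAM hearts lie below the control hearts in 8 panels, above them for Nrf1 and overlapping them for Ppard.

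Among the coactivators, Perm1 fell furthest. Perm1 (ENSMUSG00000078486, chr4:156215868-156221307, GRCm38) was at 456, 524, 534 and 559.7 CPM in D15 control hearts and 123, 68.8, 199 and 116 CPM in EAM hearts. Its level was thus 25.1% of control, a log2 fold change of -1.99 ± 0.27 (SE, 4 against 4) with an adjusted p of 0.000122 by edgeR. Ppargc1a (ENSMUSG00000029167, chr5:51454250-51567726) was at 109, 119, 129.7 and 141 CPM in control and 40.9, 27.5, 69.3 and 40.5 CPM in EAM hearts. It fell to 36.6% of control (log2 fold change -1.45 ± 0.24, adjusted p = 0.00042 by edgeR), with the highest EAM heart well under the lowest control heart. Ppargc1b (ENSMUSG00000033871) was at 37.4, 30.5, 30.0 and 25.2 CPM in control and 14.2, 14.1, 16.9 and 13.4 CPM in EAM hearts. It fell to 48.9% of control (-1.03 ± 0.12, adjusted p = 5.68e-05 by edgeR), and its 4 EAM hearts were close together while its control hearts were spread. The 2-fold limit was not always met: its log2 fold change was -0.89 with total counts and -1.10 to -0.91 with 1 heart left out.

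The 2 PPARs parted at D15. Ppara (ENSMUSG00000022383, chr15:85734983-85802819), the main fatty acid receptor of the heart, was at 62.1, 76.1, 76.8 and 77.5 CPM in control and 15.6, 10.6, 28.1 and 14.2 CPM in EAM hearts. This was the largest fall of the group, to 23.96% of control (-2.06 ± 0.26, adjusted p = 7.34e-05 by edgeR). Ppard (ENSMUSG00000002250, chr17:28232700-28301474) was at 56.8, 58.8, 59.6 and 61.8 CPM in control and 51.5, 52.2, 57.2 and 54.3 CPM in EAM hearts, and the groups overlapped. Its log2 fold change was -0.10 ± 0.05 with an adjusted p of 0.118, and it turned to 0.05 when total counts replaced TMM. Within each heart the ratio of Ppara to Ppard CPM was 1.09, 1.29, 1.29 and 1.25 in control and 0.302, 0.203, 0.492 and 0.262 in EAM hearts. This ratio needs no scaling between hearts. Its log2 value differed by -2.04 ± 0.27 (SE), with p = 0.0286 by an exact two-sided permutation test, the smallest p that 4 against 4 hearts allow, and 0.0857 after adjustment over the 15 ratio tests made (5 pairs on 3 days).

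All 3 ERRs fell at D15, Esrra least. Esrrg (ENSMUSG00000026610, chr1:187608791-188214885), a factor in the switch of the heart to oxidative metabolism around birth, was at 91.1, 90.3, 86.5 and 88.1 CPM in control and 28.4, 20.4, 40.5 and 23.7 CPM in EAM hearts. Its level was 32.5% of control (-1.62 ± 0.18, adjusted p = 3.78e-05 by edgeR). Esrrb (ENSMUSG00000021255, chr12:86361117-86521628) was at 41.1, 51.2, 49.1 and 48.4 CPM in control and 16.4, 10.0, 26.2 and 15.3 CPM in EAM hearts, or 36.7% of control (-1.45 ± 0.24, adjusted p = 0.000427 by edgeR). Esrra (ENSMUSG00000024955, chr19:6910977-6921813) was at 185, 206, 197 and 201 CPM in control and 93.0, 85.2, 113 and 90.2 CPM in EAM hearts. It fell to 49.7% of control (-1.01 ± 0.09, adjusted p = 1.03e-05 by edgeR), just past the 2-fold limit. With 1 heart left out the log2 fold change was -1.10 to -0.96, so that limit was not always met. Exons of Esrra overlap those of Trmt112 on the opposite strand, and the sources used here do not state whether reads were counted by strand, so some reads could belong to either gene. The ratio of Esrrg to Esrra was 0.493, 0.439, 0.438 and 0.438 in control and 0.306, 0.239, 0.357 and 0.263 in EAM hearts, a log2 difference of -0.65 ± 0.13 (exact permutation p = 0.0286, adjusted 0.0857). The ratio of Esrrb to Esrra differed by -0.51 ± 0.20 (exact permutation p = 0.0571, adjusted 0.0952), and its groups overlapped.

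Nrf1 and Tfam moved apart. Tfam (ENSMUSG00000003923, chr10:71225464-71238280) was at 69.7, 70.9, 64.5 and 69.2 CPM in D15 control and 34.2, 31.3, 39.8 and 33.2 CPM in EAM hearts. It fell to 51.8% of control (-0.95 ± 0.08, adjusted p = 5.28e-06 by edgeR), the smallest adjusted p of the group, and was not called because it missed the 2-fold limit. Nrf1 (ENSMUSG00000058440, chr6:30047988-30153458) was at 18.7, 18.01, 19.3 and 17.8 CPM in control and 24.1, 23.97, 24.4 and 24.8 CPM in EAM hearts. It rose to 135.0% of control (0.43 ± 0.06, adjusted p = 0.000133 by edgeR), the only regulator above control past the adjusted limit, with little spread in either group. The ratio of Tfam to Nrf1 was 3.72, 3.94, 3.34 and 3.88 in control and 1.42, 1.30, 1.63 and 1.34 in EAM hearts, a log2 difference of -1.39 ± 0.09 (exact permutation p = 0.0286, adjusted 0.0857).

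The falls were next set against those of heart muscle genes at large, by scaling each library to its summed 16 cardiomyocyte genes. Under this scaling the median of all genes moved from 0.02 to 1.27 (log2) at D15, and 71% of genes were higher and 2.08% lower past the adjusted limit. Ppara and Perm1 remained lower past that limit, at -0.92 ± 0.18 (adjusted p = 0.000307) and -0.86 ± 0.16 (adjusted p = 0.000229) by edgeR. Ppargc1a at -0.31 ± 0.17, Esrrb at -0.30 ± 0.18 and Esrrg at -0.45 ± 0.17 did not pass, with adjusted p of 0.105, 0.130 and 0.0246. Ppargc1b at 0.19 ± 0.22, Esrra at 0.21 ± 0.17 and Tfam at 0.28 ± 0.18 changed sign and did not pass either. Nrf1 at 1.68 ± 0.22 and Ppard at 1.14 ± 0.20 passed as higher, values to be read beside the median of 1.27 for all genes. Both were also past the 2-fold limit, as were 60.2% of all genes upwards and 1.02% downwards.

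**Figure D3:**
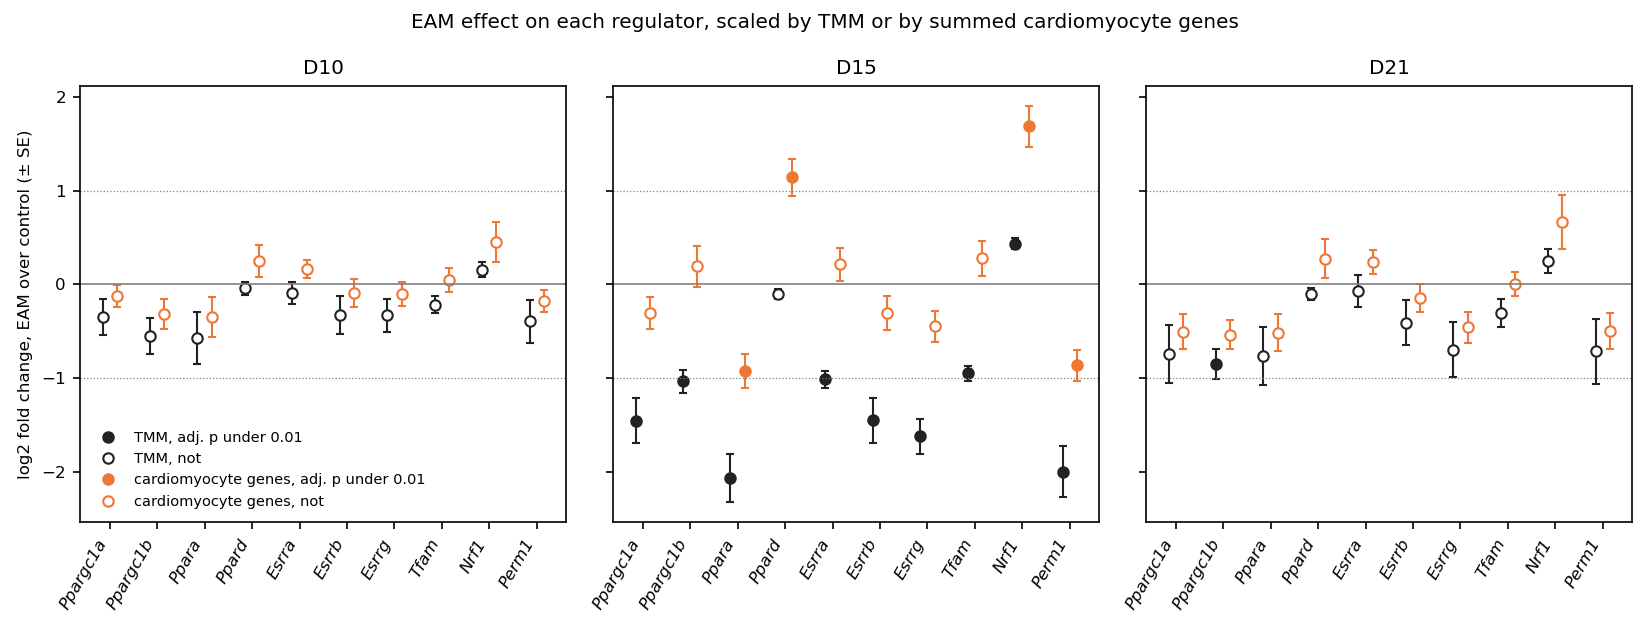
Log2 fold change of EAM over control hearts (± SE) for each regulator and day, scaled by TMM (black) or by the summed cardiomyocyte genes (orange); filled points had an adjusted p under 0.01 and dotted lines mark 2-fold. At D15 only Ppara and Perm1 lie below 0 with filled points under both scalings.

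At D21 the falls were smaller and the EAM hearts far apart. No regulator was called, against 1.16% of the 15266 genes lower and 4.13% higher. These shares rested on single hearts: 177 genes were called lower and 630 higher, and with 1 heart left out 7 to 530 and 0 to 1565, both highest without EAM replicate 3. They also moved with the method: 369 lower and 1364 higher by DESeq2, 135 and 80 by limma-voom, and 26 and 3 with the cardiomyocyte scaling. For the regulators, DESeq2 and limma-voom also called 0, and 4 of the 10 were under an unadjusted p of 0.05 by edgeR, against 46.4% of genes. Ppargc1b alone passed the adjusted limit, against 3.1% of genes in that direction. It was at 34.99, 34.2, 43.0 and 37.2 CPM in control and 17.2, 21.7, 27.1 and 16.2 CPM in EAM hearts, or 55.5% of control (-0.85 ± 0.16, adjusted p = 0.0085 by edgeR). It no longer passed in 7 of the 8 fits that left out 1 heart, which gave 0 regulators past the limit, although its log2 fold change stayed between -1.01 and -0.76. Without EAM replicate 3 there were 2 past the limit. Ppard, at 58.0, 55.6, 59.3 and 56.7 CPM in control and 50.6, 52.5, 54.6 and 52.7 CPM in EAM hearts, was the other gene whose groups did not overlap, against 18.7% of genes in that direction. Its log2 fold change was -0.11 ± 0.06 with an adjusted p of 0.218 by edgeR, and 0.28 with the cardiomyocyte scaling, under which the median of all genes was 0.37.

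The EAM hearts took much the same order for most of the remaining genes at D21. Ppargc1a was at 59.1, 82.6, 114 and 31.9 CPM in EAM hearts 1 to 4, with control hearts at 110.1 to 126 CPM. Perm1 was at 218, 336, 454 and 112 CPM, with control hearts at 436 to 486 CPM. Ppara was at 31.9, 46.1, 61.8 and 19.3 CPM, with control hearts at 53.4 to 84.9 CPM. In each case replicate 4 lay within the range of the D15 EAM hearts and replicate 3 lay within the control range. Replicate 4 was the lowest for 8 of the 10 genes and replicate 3 the highest for 9. Nrf1 ran the opposite way, at 22.0, 20.4, 17.5 and 23.1 CPM, with control hearts at 16.2 to 20.3 CPM. Replicates 4 and 3 had leucocyte sums of 4612 and 1464 CPM and cardiomyocyte sums of 24221 and 49218 CPM. Replicates 1 and 2 had 4875 and 2455 CPM of leucocyte genes and 29676.5 and 39431 CPM of cardiomyocyte genes. The highest leucocyte sum was thus in replicate 1. Esrra was at 176, 196, 216 and 114 CPM with control hearts at 169.6 to 201 CPM, and Tfam at 46.6, 63.4, 66.4 and 39.2 CPM with control hearts at 66.2 to 69.8 CPM. Log2 fold changes were -0.74 ± 0.31 for Ppargc1a, -0.76 ± 0.31 for Ppara, -0.71 ± 0.35 for Perm1, -0.69 ± 0.29 for Esrrg, -0.41 ± 0.24 for Esrrb, -0.31 ± 0.15 for Tfam, -0.07 ± 0.17 for Esrra and 0.25 ± 0.13 for Nrf1. Their adjusted p were 0.0878 to 0.761 by edgeR. With 1 heart left out these values ranged from -1.04 to -0.50 for Ppargc1a, -1.05 to -0.54 for Ppara, -1.04 to -0.46 for Perm1, -1.01 to -0.48 for Esrrg, -0.67 to -0.22 for Esrrb, -0.43 to -0.19 for Tfam, -0.19 to 0.080 for Esrra and 0.18 to 0.31 for Nrf1, with both ends of each range set by leaving out EAM replicate 3 or 4. With all 12 control hearts as controls 6 regulators passed the adjusted limit as lower, against 18.9% of genes: Ppargc1a, Ppargc1b, Ppara, Esrrg, Tfam and Perm1. The ratio of Esrrg to Esrra was again lower in all 4 EAM hearts, at 0.233, 0.311, 0.395 and 0.228 against 0.446 to 0.511 in control hearts (log2 difference -0.71 ± 0.19, exact permutation p = 0.0286, adjusted 0.0857).

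**Figure D4:**
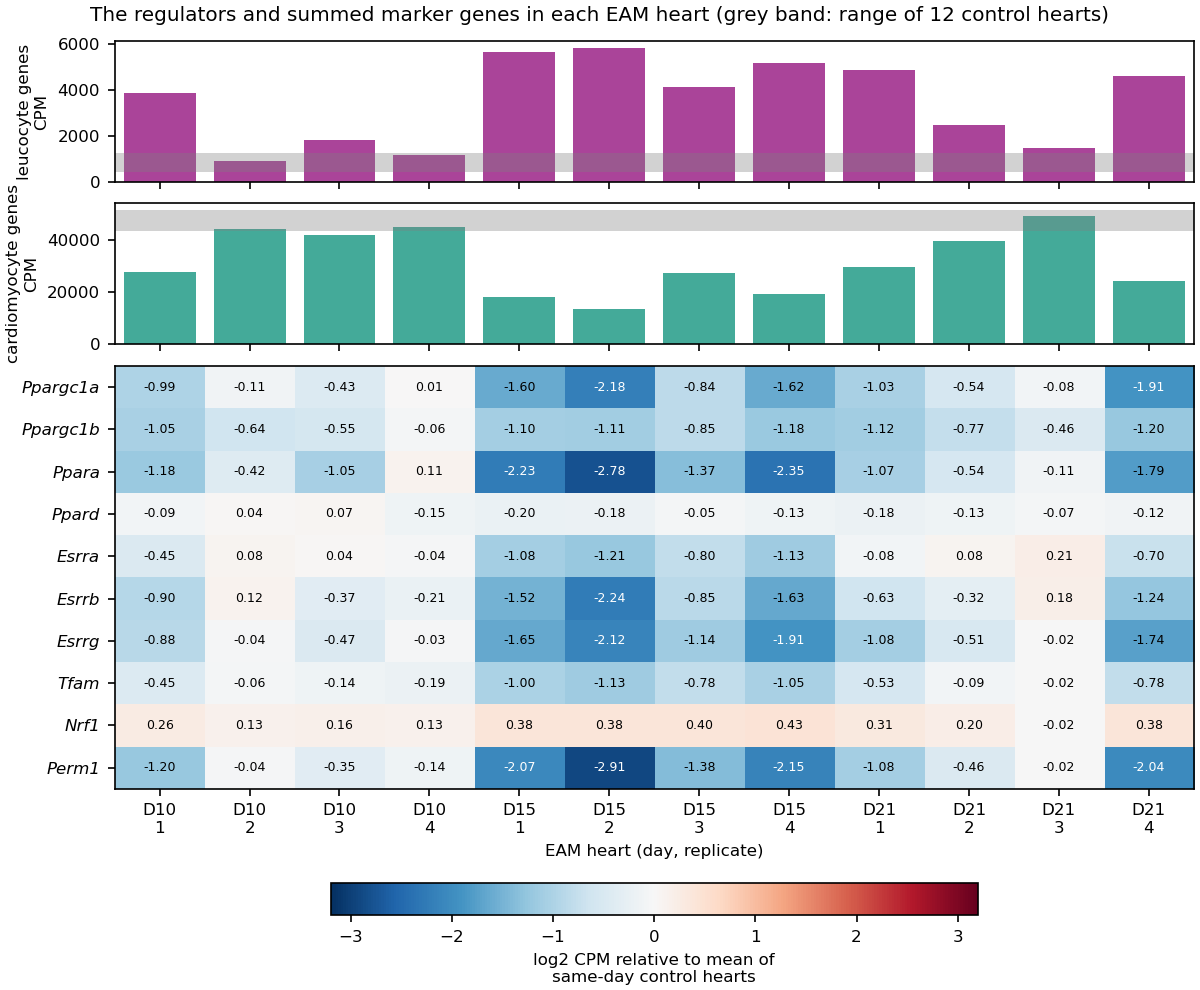
Summed leucocyte and cardiomyocyte genes (CPM, bars; grey band, range of the 12 control hearts) above the log2 CPM of each regulator relative to the mean of the same-day control hearts, for each of the 12 EAM hearts. D10 replicate 1, the D15 hearts and D21 replicates 1 and 4 are the hearts with the highest leucocyte sums and the darkest blue columns.

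Whether the EAM effect itself differed between days was tested in 1 fit of all 24 hearts. From D10 to D15 the effect grew more negative for 4 regulators past an adjusted p of 0.01, against 16.7% of 16318 genes. These were Perm1 (-1.65 ± 0.45, adjusted p = 0.00699), Esrrg (-1.34 ± 0.36, adjusted p = 0.0062), Esrra (-0.97 ± 0.20, adjusted p = 0.00216) and Tfam (-0.78 ± 0.17, adjusted p = 0.00242), all by edgeR. Ppara, with a difference of -1.54 ± 0.45, fell just outside at 0.0101. The count was 7 without D10 EAM replicate 1 or without D15 EAM replicate 3, and 2 or 3 without any other single heart. The genes lower past the limit, 2733 of all genes, moved with it, to 3653 and 3274 in the first 2 of these fits and 1683 to 2346 in the others. From D15 to D21 the effect moved back for Esrra (0.96 ± 0.20, adjusted p = 0.00303) and Tfam (0.66 ± 0.17, adjusted p = 0.00849) by edgeR, 2 of the 10 against 8.47% of genes. The count was 1 in 13 of the 16 fits that left out 1 heart, each of which lost Tfam, and 2 without D21 EAM replicate 1, 6 without D21 EAM replicate 4 and 5 without D15 EAM replicate 3. Over all genes 1382 were higher past the limit, against 1283, 2613 and 2066 without these 3 hearts in turn and 636 to 1145 in the 13 fits. With the replicate number as a block neither passed (adjusted p = 0.0115 for Esrra and 0.0217 for Tfam by edgeR), and with limma-voom, total counts or no filter Esrra alone did. With the cardiomyocyte scaling no regulator passed from D15 to D21, and from D10 to D15 the 2 that passed were Nrf1 and Ppard, in the upward direction, against 31.1% of all genes. The median of all genes was then 0.98, and Ppard, at 0.90, lay below it.

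Genes related to these regulators were read from 6 lists: 2 of their target genes, and 1 each of other receptors and partners, of coregulators and sensors, of the upkeep of mitochondrial DNA and of mitochondrial mRNAs. Counts called by edgeR's quasi-likelihood test at D15 are to be read against the 12.9% of all genes called lower and 18.1% called higher, and those at D21 against 1.16% and 4.13%. At D10 no gene was called by this test. The ERR and PGC-1 target genes of energy production fell almost as one at D15: 23 of 25 were called lower and none higher, and the median log2 fold change was -1.26. The largest falls were Cox7a1, a cytochrome c oxidase subunit of muscle (-1.67 ± 0.30, from 305 ± 17.4 to 93.5 ± 46.0 CPM), and Ckmt2, the mitochondrial creatine kinase of muscle (-1.52 ± 0.26), with adjusted p of 0.00066 and 0.000585 by edgeR. At D10 and D21 the medians were -0.15 and -0.27, and none of the 25 was called, on days when few or no genes were. Scaled to the cardiomyocyte genes, the list's D15 median was -0.10 and none of the 25 passed an adjusted p of 0.01.

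PPAR target genes of fatty acid use split at D15, with 22 of 27 called lower and 3 higher and a median of -1.49. Ucp3, a muscle uncoupling protein, was at 44.9 ± 29.8 CPM in control and 4.97 ± 2.24 CPM in EAM hearts (log2 fold change -3.15 ± 0.47, adjusted p = 0.000209 by edgeR). Plin5, which coats lipid droplets beside mitochondria, fell from 156 ± 6.76 to 37.9 ± 21.3 CPM (-2.01 ± 0.31, adjusted p = 0.000283). Angptl4, an inhibitor of lipoprotein lipase, rose from 9.75 ± 3.40 to 86.1 ± 28.1 CPM (3.18 ± 0.29, adjusted p = 1.09e-05), and Ucp2, an uncoupling protein also made by leucocytes, rose from 134 ± 18.4 to 704 ± 100.1 CPM (2.44 ± 0.14, adjusted p = 6.75e-07). Plin2, another lipid droplet coat protein, was the third gene called higher (1.67). Scaled to the cardiomyocyte genes the D15 median was -0.35, with 6 of the 27 lower past the adjusted limit, against 2.08% of all genes, and 5 higher, against 71%; Ucp3 (-2.01) and Plin5 (-0.90) were among the lower. At D21, 2 of the 27 were called lower (7.41%, against 1.16% of all genes, a share that rested on single hearts as given above), Pdk4 (-1.48 ± 0.25), a kinase that inactivates pyruvate dehydrogenase, and Acot1 (-1.63 ± 0.30), an acyl-CoA thioesterase. Markers of fat cells moved on the same day: 6 adipocyte genes summed to 0.221 to 7.25 CPM in D21 EAM hearts against 18.4 to 58.5 CPM in D21 control hearts. All 4 of them that could be tested had values below 0 (median -3.92), 1 of them called, and up to 3 of the 6 were at 0 in a D21 EAM heart. At D15 their sums overlapped, at 26.2 to 43.8 against 12.8 to 40.6 CPM. Their part in the D21 values was not tested.

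**Figure D5:**
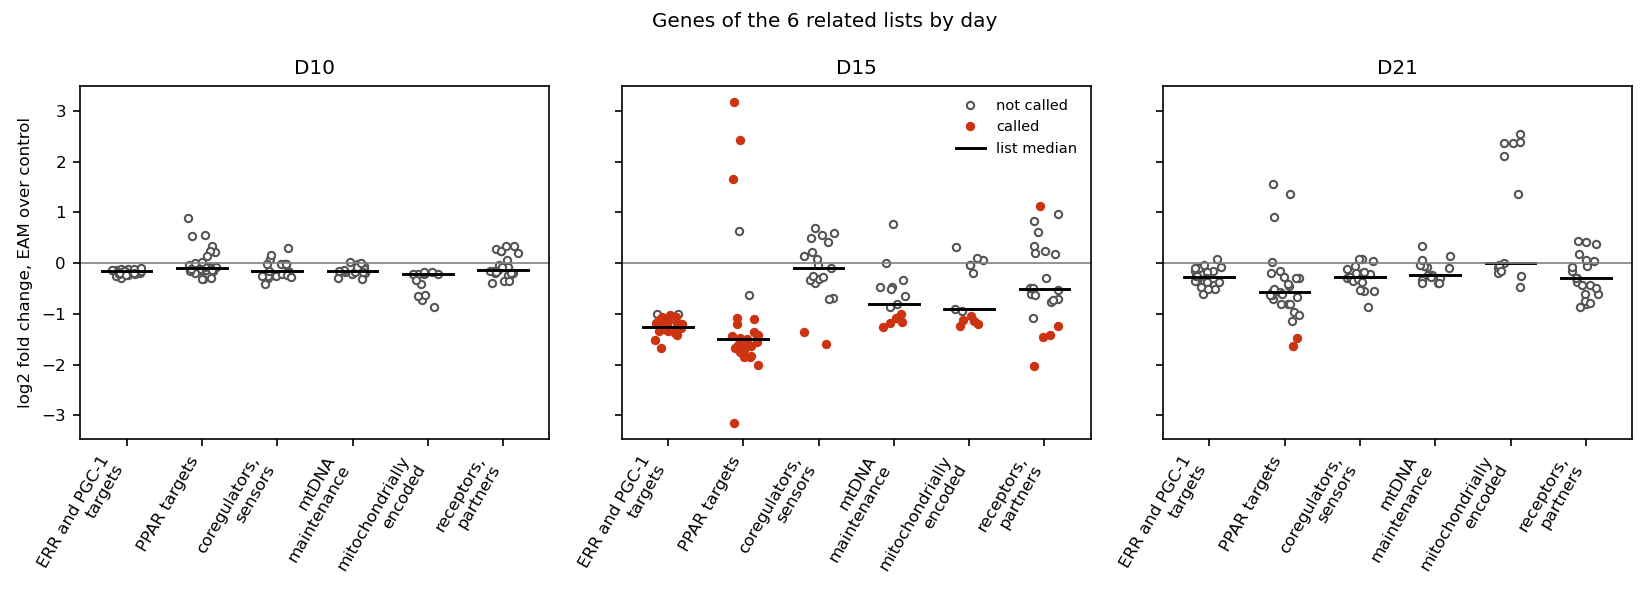
Log2 fold change of EAM over control hearts for each gene of the 6 related lists at D10, D15 and D21; red points were called, and the black line is the list's median. At D15 the medians run from -1.49 for PPAR targets to -0.10 for coregulators and sensors.

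Other receptors and partners moved less evenly. Of 22 nuclear receptors and transcription factor partners, 4 were called lower (18.2%, against 12.9% of all genes) and 1 higher at D15 (4.55%, against 18.1%), with a median of -0.51. Rxrg, a retinoid X receptor, the class that pairs with PPARs on DNA, fell to 25.2 ± 8.33 from 105.6 ± 7.71 CPM (-2.03 ± 0.20, adjusted p = 1.93e-05 by edgeR), and stayed lower with the cardiomyocyte scaling (-0.87, adjusted p = 0.000223). Thrb, a thyroid hormone receptor, fell by 1.45 on the log2 scale (SE 0.20), and the other genes called lower were Thra and Lpin1. Pprc1, the PGC-1-related coactivator, moved opposite to its relatives Ppargc1a and Ppargc1b, from 27.0 ± 0.927 to 57.0 ± 7.66 CPM (1.12 ± 0.09, adjusted p = 6.68e-06 by edgeR). With the cardiomyocyte scaling Thrb was at -0.29 (adjusted p = 0.129 by edgeR). Of the 22 genes, 1 was then lower past the adjusted limit, against 2.08% of all genes, and 14 higher, against 71%. Of 19 coregulators, energy sensors and deacetylases 2 were called lower (10.5%, against 12.9% of all genes) and none higher, with a median of -0.10. They were Sirt3, the mitochondrial deacetylase (-1.59 ± 0.18), and Prkaa2, the muscle form of the AMP kinase catalytic subunit (-1.36 ± 0.13). With the cardiomyocyte scaling these 2 were at -0.41 and -0.16 (adjusted p = 0.0342 and 0.355 by edgeR). None of the 19 was then lower past the adjusted limit, and 15 were higher, against 71% of all genes.

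Genes that keep and read mitochondrial DNA, where TFAM acts, fell in part. Of 15 such genes 6 were called lower at D15 (median -0.81), led by Tefm, a transcription elongation factor (-1.26 ± 0.16), and Tfb2m, which opens mitochondrial promoters with TFAM (-1.18 ± 0.14). Of the 13 mRNAs that mitochondria encode themselves, 5 were called lower (median -0.91), among them mt-Nd5 (-1.24 ± 0.23) and mt-Nd2 (-1.19 ± 0.20), subunits of complex I. With the cardiomyocyte scaling none of either list was lower past the adjusted limit, and Tefm (-0.07), Tfb2m (0.02), mt-Nd5 (-0.07) and mt-Nd2 (-0.01) were all near 0. The list medians were then 0.43 and 0.34, against 1.27 for all genes. Of the 15 genes 7 were higher past the limit, and of the 13 mRNAs 0, against 71% of all genes.

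Finally, the genes whose course over the 24 hearts was nearest to each called regulator were found among 14221 genes, as the smallest mean absolute difference of log2(CPM + 1) after centring on the control hearts. For Ppargc1a these were Akap1, Mut and Fam160a1 (0.10 each), and for Ppargc1b Magi3 (0.11), Afdn (0.12) and Mtcl1 (0.12). Perm1 was nearest to Ttll1 (0.10), Slc2a12 (0.11) and Dnajc28 (0.11). Ppara was nearest to Gm13111 (0.14), then to Perm1 itself (0.15) and Fsd2 (0.15). Esrra was nearest to Atp5d, Mkks and Mrpl15 (0.06 each), Esrrb to Rragd (0.08), A430046D13Rik (0.09) and Bckdhb (0.10), and Esrrg to Pitpnc1 (0.08), Pptc7 (0.08) and Tmem65 (0.09). Between regulators the nearest pairs were Esrra with Tfam (0.10), Ppargc1a with Esrrg (0.12) and Ppara with Perm1 (0.15). Ppargc1b had its nearest regulator, Tfam, only at place 770 among all genes (0.24).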

How the data were processed

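RNA from 24 mouse hearts was sequenced as 75-base read pairs from a directional library kit. The authors aligned reads with HISAT2 2.0.4 to GRCm38, removed duplicates with Picard and counted reads per gene with featureCounts against Ensembl. The deposited counts are raw and unnormalized. The strand setting of the counting was not stated. The authors' separate table of the whole series held the same counts and no other samples. Spike-ins held no reads and were left out.

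Groups came from the labels. The 4 EAM hearts of a day were tested against its 4 control hearts in edgeR 4.0.16 (quasi-likelihood test, TMM, R 4.3.3), keeping genes that reached 10 reads in 4 or more samples and adjusting p-values over all genes kept by Benjamini-Hochberg. Differences between days were fitted on all 24 hearts, and control hearts over days on 12. P-values measure the spread between these hearts. Alternatives used the likelihood ratio test, DESeq2 1.42.0, limma-voom (limma 3.58.1), other scalings, no filter, other samples, the replicate number as a block, and each heart left out. Ratios were compared by exact permutation (scipy 1.17.1).

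All members are named. Of each related list, the 2 largest changes in each direction among genes called at D15 are named, and for each called member the 3 genes most like it (pseudocount 1, mean of at least 1 CPM). Plin2, Pdk4, Acot1, Thra and Lpin1 were named after their values were seen. Members and lists were chosen with earlier results of these data known. The scripts were tested on simulated data.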

Additional observations from a re-analysis of the deposited data

Results flagged for a closer look

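Of 60 groups of 4 hearts (10 genes in 6 groups), 2 held a heart whose gap to its neighbour was large for the group's range by Dixon's test at the 95% level, and chance alone gives about 1 in 20. In D10 control hearts, replicate 1 had 123 CPM of Ppargc1a, below the other 3. In D15 control hearts, replicate 1 had 62.1 CPM of Ppara, below the other 3. Each was the lowest control heart for a gene with a lower fitted value in EAM hearts. Leaving it out raises the control mean, so it does not test the direction of that comparison.

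The EAM effect differed between days by an interaction test (edgeR, adjusted p under 0.01) for 6 combinations. From D10 to D15 the log2 effect changed by -0.97 for Esrra, -1.34 for Esrrg, -0.78 for Tfam and -1.65 for Perm1, against 16.7% of all genes lower. From D15 to D21 it changed by 0.96 for Esrra and 0.66 for Tfam, against 8.47% of all genes higher.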

How the results depend on the processing

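Of 980 recomputed values for the 10 regulators, over 50 results, 862 kept their direction and side of the limit, 26 newly passed it, 58 no longer did and 34 changed sign. The count called at D15, 7, was 5 to 8 under the other settings and with any heart left out, except with the cardiomyocyte scaling. There 2 were called, Nrf1 and Ppard as higher, against 60.2% of all genes, and none of the 7 was. An adjusted p of 0.01 was passed by 2 as lower and 2 as higher, against 2.08% and 71% of all genes. That scaling also gave 0 past the limit at D21, and 2 and 0 for the differences from D10 to D15 and D15 to D21. The 2 were higher, against 31.1% of all genes. With all 12 control hearts as controls, 2 passed at D10 and 6 at D21, all as lower, against 4.19% and 18.9% of all genes. Limma-voom gave 0 at D21 and 1 from D15 to D21, DESeq2 6 from D10 to D15, and total counts or no filter 1 from D15 to D21. Over all genes limma-voom had 271 lower and 108 higher of 15266 at D21, and 1221 higher of 16318 from D15 to D21. DESeq2 had 3133 lower of 15677 from D10 to D15. From D15 to D21 total counts had 906 higher of 16318, and no filter 969 of 27304. For the regulators, leaving out each heart gave 0 to 2 past the limit and 0 to 2 called at D21, 2 to 7 for the difference from D10 to D15 and 1 to 6 from D15 to D21. The 0 to 2 called at D21 reached 2 without EAM replicate 3. The cause was not tested.

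Sign changes with the cardiomyocyte scaling were, at D10, Ppard 0.25, Esrra 0.16 and Tfam 0.051; at D15, Ppargc1b 0.19, Ppard 1.14, Esrra 0.21 and Tfam 0.28; at D21, Ppard 0.28, Esrra 0.24 and Tfam 0.0034. This scaling moved all genes, to medians of 0.28, 1.27 and 0.37 on these days, and each of these values was below its day's median. From D10 to D15 they were Ppargc1b 0.50, Ppard 0.90, Esrra 0.049 and Tfam 0.23, and from D15 to D21 Ppargc1a -0.20, Ppargc1b -0.73, Ppard -0.87, Esrrg -0.010 and Tfam -0.27, and the median of all genes was then 0.98 and -0.89 in turn. Total counts turned Ppard to 0.014 at D10 and 0.047 at D15, where they moved the median of all genes to 0.17, and its differences to 0.034 from D10 to D15 and -0.14 from D15 to D21. The last, 0.014 by TMM and so near 0, was also -0.00571 by DESeq2, -0.00496 without the filter and -0.029 to 0.044 as hearts were left out. Esrra ranged from -0.15 to 0.014 at D10 and from -0.19 to 0.080 at D21 as hearts were left out. The ratio tests, with hearts left out, were chosen after the data were seen. A ratio whose groups did not overlap could not change sign when 1 heart was left out.

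Replicate numbers were not treated as pairs. Same-numbered hearts had deviations correlated at 0.0966 to 0.303 at D21, and below 0.1 for 2 of 4 numbers at D10 and 4 of 4 at D15. D10 replicates 1 and 4 were at 0.368 each, the highest of the 3 days, and correlated best with their own number. With a replicate block 7 regulators were called at D15, 4 passed from D10 to D15 and 0 from D15 to D21, and at D21 3 of 4 numbers correlated best with their own.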

Other observations

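Marker genes of other cell types were called as follows by edgeR. At D15, 14 of 15 leucocyte and 4 of 8 fibroblast genes were called higher, against 18.1% of all genes, and 12 of 16 cardiomyocyte, 2 of 8 endothelial and 4 of 7 smooth muscle and pericyte genes lower, against 12.9%. At D21, 11 of 14 leucocyte genes tested and 4 of 8 fibroblast genes were called higher, against 4.13% of all genes, but no gene at all was called higher that day without control replicate 1, 2 or 3. Of the 4 adipocyte genes tested, Plin1 was called lower at D21 (-4.63 ± 0.76, adjusted p = 0.00656), and Cidec, Cfd and Adipoq were at -3.59, -3.35 and -4.25 with adjusted p of 0.0104 to 0.0275.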
